A study of Mus musculus with 12 samples.

Results

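The genes described here are 10 members of the machinery that carries a cell from G1 into S phase: the D-type cyclins Ccnd2 and Ccnd3, the kinases Cdk4 and Cdk6, the E-type cyclins Ccne1 and Ccne2, the transcription factors E2f1 and E2f2, and the pocket proteins Rb1 and Rbl1. They were chosen by name, and 10 of 10 were found among the 13886 genes of the deposited matrix. RNA was measured by droplet-based 5'-end single-cell sequencing of IgD-negative, eYFP-positive B cells and plasma cells from the draining lymph nodes of 3 mice. Every mouse had received NP-KLH mixed with Sigma Adjuvant System and later tamoxifen by gavage, and the cells were taken at day 16 of the primary response, 5 days after tamoxifen. The sources used here do not give the genotype, the Cre line behind the eYFP mark or the age of the mice. No untreated or unimmunised mice were analysed here, so every comparison is between cell states or cell cycle phases within the same 3 mice.

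By the authors' annotation the 6000 cells fall into 6 states: 137 plasma cells (PC), 49 pre-plasma cells (prePC), 396 pre-memory cells (preMem), 165 cells named LZtoDZ for passage from light to dark zone, 3040 dark zone cells (DZ) and 2213 light zone cells (LZ). Dark and light zone are the compartments of the germinal center in which B cells mainly divide and mainly compete for antigen and T cell help. The median number of transcript molecules (UMIs) per cell was 24018 in PC, 9225 in prePC, 4119 in preMem, 19103 in LZtoDZ, 7875 in DZ and 6258 in LZ, and the mice gave 12669908, 18664942 and 20638376 UMIs in all. Defining markers followed the names: the plasma cell antigen Sdc1 was at 139 ± 16.4 CPM (UMI counts scaled to library size) in PC and at 0.0418 ± 0.0725 CPM in LZ, and Ccr6, a receptor of memory B cells, was at 214 ± 29.4 CPM in preMem and 4.66 ± 1.30 CPM in LZ (mean ± SD, n = 3 mice). Myc was at 125 ± 55.1 CPM in LZtoDZ and 47.7 ± 9.31 CPM in LZ, and the dark zone receptor Cxcr4 was at 72.8 ± 6.46 CPM in DZ and 31.0 ± 3.06 CPM in LZ. The prePC held 16 UMIs of the plasma cell regulator Prdm1 but 1 UMI of Sdc1. Of 21 markers of T, NK, myeloid, stromal and red cells 14 were in the matrix, and their sum was 3.41 to 14.4 unscaled CPM (without TMM factors) in the PC, preMem, LZtoDZ, DZ and LZ of each mouse. In prePC it was 346, 22.1 and 60.0 unscaled CPM in mice 1, 2 and 3, and 10 to 12 of the 14 markers were at 0 there.

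The way the cells were captured touches the plasma cell and pre-plasma cell results. The labels say that plasma cells and other cells were loaded in separate wells, and 117 of the 137 PC carry a second number in their cell names, against 2 prePC, 3 LZtoDZ and none of the preMem, DZ and LZ. The files do not say which well each number stands for, no cell barcode was shared by the 2 numbers, and for most PC the state and the number cannot be told apart. The prePC sums hold only 17, 22 and 10 cells in mice 1, 2 and 3.

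In G1, D-type cyclins bind and activate Cdk4 and Cdk6, which phosphorylate the pocket proteins Rb1 and Rbl1. Unphosphorylated pocket proteins hold back E2F transcription factors. Once released, E2F1 and E2F2 drive genes of DNA replication and the E-type cyclins, which activate Cdk2 at the start of S phase. Germinal center B cells of mice are known to depend on cyclin D3, and cyclin D2 is known in B cells as a target of Myc and of receptor signals that is restrained by Foxo1 and Bcl6.

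In the GENCODE annotation of GRCm38 all 10 members are protein-coding genes. The D-type cyclins are Ccnd2 (chr6:127125162-127152193, minus strand) and Ccnd3 (chr17:47505051-47599691, plus strand), and the kinases are Cdk4 (chr10:127063534-127067920, plus strand) and Cdk6 (chr5:3341485-3531008, plus strand). The E-type cyclins are Ccne1 (chr7:38097984-38107534, minus strand) and Ccne2 (chr4:11191351-11204779, plus strand). The E2F factors are E2f1 (chr2:154559407-154569892, minus strand) and E2f2 (chr4:136172394-136196057, plus strand), and the pocket proteins are Rb1 (chr14:73183673-73325822, minus strand) and Rbl1 (chr2:157145893-157204534, minus strand). RefSeq promoter windows of GRCm38.p6, from 250 bases before to 50 bases after a start that RefSeq lists, were at hand for 7 of the 10 members, in 9 entries, since Ccnd3 and E2f2 have 2 listed starts each. Windows for Ccnd2, Ccne2 and Rb1 were not used here. The listed starts of E2f1 and Cdk6 lie inside the gene spans given above, so their windows do not cover the stretch before the GENCODE start. The first listed start of E2f2 lies before its gene span, and so does the whole of that window. The counts are per gene and do not separate the 2 starts of Ccnd3, at chr17:47504801-47505100 on the plus strand and chr17:47593217-47593516 on the plus strand.

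The 4 forms of the E2F site searched, on both strands, were TTTCCCGC, TTTCGCGC, TTTGCCGC and TTTGGCGC. No 2 matches overlapped. Rbl1 held TTTCGCGC starting 18 bases before its start, and the first start of E2f2 held TTTGGCGC starting 39 bases after it. That E2f2 match still lies before the GENCODE start of the gene. The other 7 windows held none of the 4 forms, which says only that these letters are not in these windows. Of all 32851 promoter windows 744 (2.26%) held a match, and of the 12498 windows of genes in the matrix 475 (3.80%). The windows below are those of Ccne1, Cdk4 and Rbl1, which were higher in S than in G1 in both zones, and of the first start of E2f2, since these genes carry phase results. They are printed 5′ to 3′ on the gene's own strand with the matches in capitals. They lie at chr7:38107441-38107740 on the minus strand (Ccne1), chr10:127063285-127063584 on the plus strand (Cdk4), chr4:136172024-136172323 on the plus strand (E2f2) and chr2:157204485-157204784 on the minus strand (Rbl1).
Ccne1: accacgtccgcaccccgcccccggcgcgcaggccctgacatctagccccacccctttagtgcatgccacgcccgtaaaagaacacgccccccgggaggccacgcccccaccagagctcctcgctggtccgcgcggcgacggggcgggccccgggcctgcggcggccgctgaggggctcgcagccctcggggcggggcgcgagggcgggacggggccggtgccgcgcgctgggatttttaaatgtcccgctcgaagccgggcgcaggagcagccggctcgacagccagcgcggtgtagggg
Cdk4: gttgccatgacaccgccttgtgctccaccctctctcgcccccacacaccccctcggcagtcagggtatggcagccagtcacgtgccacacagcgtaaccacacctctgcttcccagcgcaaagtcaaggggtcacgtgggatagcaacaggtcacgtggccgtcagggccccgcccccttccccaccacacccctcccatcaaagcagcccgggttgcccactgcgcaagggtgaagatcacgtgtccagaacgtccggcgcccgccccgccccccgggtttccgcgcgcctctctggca
E2f2: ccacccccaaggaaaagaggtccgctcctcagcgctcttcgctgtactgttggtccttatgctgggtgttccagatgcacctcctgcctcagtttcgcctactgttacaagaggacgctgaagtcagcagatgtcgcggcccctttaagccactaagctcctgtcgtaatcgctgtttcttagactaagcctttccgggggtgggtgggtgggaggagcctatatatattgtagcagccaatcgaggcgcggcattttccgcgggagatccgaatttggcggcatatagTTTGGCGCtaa
Rbl1: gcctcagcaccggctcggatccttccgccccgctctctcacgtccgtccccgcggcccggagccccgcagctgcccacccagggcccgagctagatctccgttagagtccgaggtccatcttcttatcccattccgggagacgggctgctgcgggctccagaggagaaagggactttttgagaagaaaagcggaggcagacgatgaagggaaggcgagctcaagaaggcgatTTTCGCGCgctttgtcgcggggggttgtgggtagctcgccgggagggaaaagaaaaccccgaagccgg

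To compare states, raw UMIs were summed per mouse and state, and all genes were tested together with edgeR's quasi-likelihood test with the mouse as a block. CPM values are those sums divided by library sizes that TMM factors had adjusted, and measure the share of a sum's molecules. The TMM factors were 0.566 to 0.706 in PC and 1.01 to 1.17 elsewhere, so CPM in PC stand above the unscaled values. A gene was called where the Benjamini-Hochberg adjusted p over the 8473 genes tested was under 0.05, and 10 of 10 members passed the filter on low counts. The cell is no replicate here, and n is 3 mice throughout. All comparisons below but that of LZtoDZ with DZ share the LZ sums.

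Against LZ, 7 of the 10 members were called in PC, 3 higher and 4 lower, against 53.3% of all genes (26.4% higher, 26.9% lower). In prePC 4 members were called, 1 higher and 3 lower, against 13.4% of all genes (8.08% higher, 5.3% lower). In preMem 5 were called, 2 higher and 3 lower, against 31.3% of all genes (16.7% higher, 14.7% lower). In LZtoDZ 7 were called, 5 higher and 2 lower, against 46.8% of all genes (22.5% higher, 24.3% lower). Relative to DZ the same numbers of members were called in LZtoDZ, against 45.1% of all genes (21.8% higher, 23.3% lower). Between DZ and LZ 1 member was called, lower in DZ, against 19.4% of all genes (8.17% higher, 11.3% lower). The members' median log2 fold change was 0.71 for LZtoDZ minus LZ, where that of all genes was -0.08, and -0.15 for PC minus LZ, where that of all genes was -0.09.

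**Figure D1:**
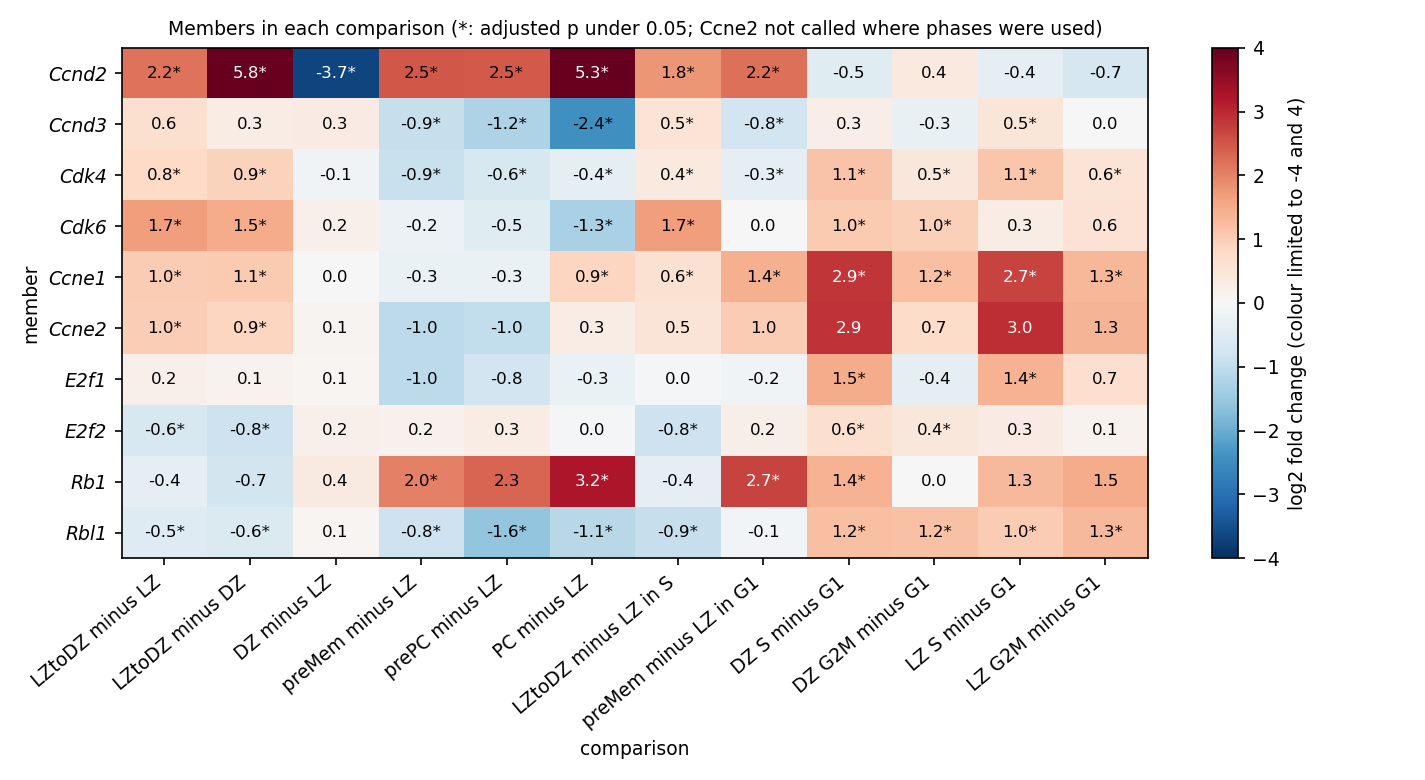
Log2 fold changes of the 10 members (rows) in 12 comparisons (columns, first group minus second), coloured from blue (lower) to red (higher), with an asterisk where the adjusted p was under 0.05. Ccne2 has no asterisk where phases were used, and colours stop at 4 in both directions. Ccnd2 carries the extremes, 5.82 for LZtoDZ minus DZ, 5.26 for PC minus LZ and -3.67 for DZ minus LZ.

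Ccnd2, the D-type cyclin linked to B cell activation, differed between states over a wider range than any other member. It stood at 479, 352 and 402 CPM in the PC of mice 1, 2 and 3 (411 ± 64.1, mean ± SD, 825 UMIs in all). Its level was 32.7, 66.0 and 103 CPM in prePC (34 UMIs) and 55.6, 77.8 and 42.3 CPM in preMem (113 UMIs). PC were above every other state in each mouse. Ccnd2 was at 55.6, 45.9 and 42.6 CPM in LZtoDZ (178 UMIs), 0.938, 0.942 and 0.563 CPM in DZ (25 UMIs) and 9.98, 11.4 and 10.0 CPM in LZ (187 UMIs). The ranges of prePC, preMem and LZtoDZ overlapped one another, all lay above LZ, and LZ lay above DZ without overlap.

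Ccnd2 passed the test in all 6 state comparisons. It was higher in PC than in LZ (log2 fold change 5.26 ± 0.17 (SE), adjusted p = 8.36e-13), and also higher in preMem (log2 fold change 2.48 ± 0.24 (SE), adjusted p = 1.87e-06) and in prePC (log2 fold change 2.46 ± 0.39 (SE), adjusted p = 0.000380). In LZtoDZ it rose relative to LZ (log2 fold change 2.16 ± 0.21 (SE), adjusted p = 1.16e-06) and relative to DZ (log2 fold change 5.82 ± 0.29 (SE), adjusted p = 8.54e-10). It was lower in DZ than in LZ (log2 fold change -3.67 ± 0.29 (SE), adjusted p = 7.80e-07). Without the cells of the second number 1 PC sum of at least 10 cells was left, and the difference was 4.45, adjusted p = 1.78e-07, with the lone PC sum assumed to vary like those of the other states. With each cell thinned to 2000 UMIs before summing, the prePC difference did not pass (1.68, adjusted p = 0.327). It passed without the cells that held RNA of other cell types (2.29, adjusted p = 0.00235).

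Ccnd3, the D-type cyclin that germinal center B cells need, ran in another order. Its level was 57.6, 68.4 and 49.6 CPM in the PC of mice 1, 2 and 3 (120 UMIs), 51.5, 279 and 68.5 CPM in prePC (93 UMIs) and 169, 171 and 168 CPM in preMem (323 UMIs). In LZtoDZ it stood at 459, 521 and 497 CPM (1893 UMIs), in DZ at 409, 392 and 389 CPM (12462 UMIs) and in LZ at 323, 306 and 316 CPM (5607 UMIs). LZtoDZ, DZ, LZ and preMem followed each other downwards without overlap between mice, PC lay below preMem, and prePC spread from below the highest PC to above preMem.

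Ccnd3 fell in PC relative to LZ (log2 fold change -2.45 ± 0.34 (SE), adjusted p = 1.58e-05), in preMem (log2 fold change -0.91 ± 0.31 (SE), adjusted p = 0.0382) and in prePC (log2 fold change -1.23 ± 0.35 (SE), adjusted p = 0.0258). The difference was 0.63 ± 0.30 for LZtoDZ minus LZ (adjusted p = 0.101) and 0.33 ± 0.30 for DZ minus LZ (adjusted p = 0.512), and neither passed. Both passed when sums of at least 20 cells were required, which leaves out the prePC of mice 1 and 3 (0.65, adjusted p = 0.000213 for LZtoDZ and 0.33, adjusted p = 0.0356 for DZ). The same setting, which leaves the prePC of mouse 2 alone, ended the prePC call (-0.25, adjusted p = 0.595). It was also lost without mouse 1 or mouse 3 and without the cells that held RNA of other cell types (log2 fold changes -0.74, -0.99 and -0.90). The preMem call was lost without mouse 1 or mouse 3 (adjusted p = 0.0717 and 0.156). The PC call was lost without the cells of the second number (-1.20, adjusted p = 0.165).

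The share of Ccnd2 among the summed Ccnd2 and Ccnd3 UMIs sets the D-type cyclins against each other within the same sums, in which deep cells weigh more. It was 89.3%, 83.7% and 89.0% in the PC of mice 1, 2 and 3, 38.9%, 19.1% and 60.0% in prePC and 24.8%, 31.3% and 20.1% in preMem. It was 10.8%, 8.10% and 7.89% in LZtoDZ, 0.229%, 0.240% and 0.145% in DZ and 2.996%, 3.60% and 3.08% in LZ. PC were thus the state in which Ccnd2 molecules outnumbered those of Ccnd3 in every mouse, and in DZ Ccnd3 made up nearly all of the sum. The share differed from LZ by 84.1 ± 3.45 percentage points in PC (mean ± SD of the paired differences, n = 3), by 36.1 ± 20.7 in prePC, by 22.2 ± 5.34 in preMem, by 5.71 ± 1.83 in LZtoDZ and by -3.02 ± 0.308 in DZ. With each cell thinned to 2000 UMIs before summing, the difference was 15.3 ± 8.84 in prePC and 14.8 ± 6.68 in LZtoDZ, and the mean over cells of the share within a cell differed by 13.4 ± 4.03 in LZtoDZ. Thinning left PC, preMem and DZ at 85.0 ± 6.85, 23.8 ± 5.24 and -2.38 ± 0.674. Each difference had the same sign in 3 of 3 mice, and each had p = 0.25 in a two-sided exact permutation of signs, the smallest p that 3 mice allow.

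The sum of both D-type cyclins varied less between state means than either gene. It was 470 ± 60.3 CPM in PC, 200 ± 133 in prePC, 228 ± 19.5 in preMem, 540.2 ± 26.3 in LZtoDZ, 397 ± 11.2 in DZ and 326 ± 7.84 in LZ (mean ± SD, n = 3). PC ranged from 420.4 to 537 CPM and LZ from 318 to 333 CPM, without overlap. This order depends on the TMM factors. Over all cells, Ccnd2 and Ccnd3 were at 246 and 35.8 unscaled CPM in PC and at 12.0 and 360 in LZ. Without TMM factors the sum was thus lower in PC than in LZ. Over the 18 sums of mouse and state, Ccnd2 and Ccnd3 gave a Pearson r of -0.67 on the log2 CPM scale, as a description of sums that share mice and libraries.

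**Figure D2:**
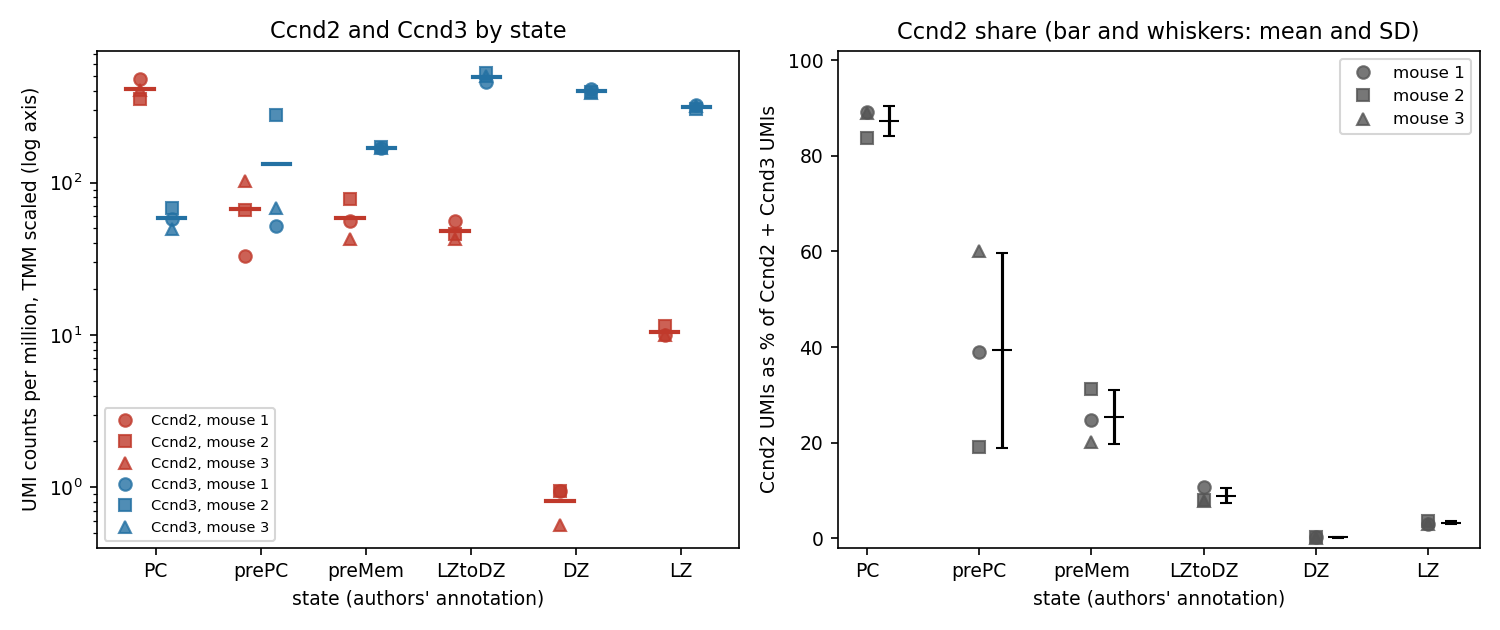
Left, CPM of Ccnd2 (red) and Ccnd3 (blue) in each mouse (symbol) by state on a log axis, with the mean of 3 mice as a line. Right, Ccnd2 UMIs as a percentage of the Ccnd2 and Ccnd3 UMIs in each mouse, with mean and SD, which was highest in PC (83.7% to 89.3%) and lowest in DZ (0.145% to 0.240%).

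Within states, Ccnd2 was unevenly spread. The groups of cells used to show it (G1 cells of LZtoDZ, cluster 5 of LZ, cluster 4 of prePC and LZ split by Myc) were chosen after their values were seen. Among LZtoDZ, 17 cells in G1 held 53 of the 178 Ccnd2 UMIs, and their Ccnd2 share was 63.2%, 64.5% and 72.4% in mice 1, 2 and 3, against 8.47%, 5.68% and 5.68% in the 148 other LZtoDZ. The 3 mice did not overlap, though the G1 groups had 5, 7 and 5 cells. The G1 cells of LZtoDZ had Ccnd2 at 195, 209 and 421 unscaled CPM, against 50.8, 37.1 and 33.9 in the other LZtoDZ, and Ccnd3 at 114, 115 and 160.3 unscaled CPM, against 549, 617 and 563.

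Among LZ, the 64 cells in the authors' cluster 5 held 63 of the 187 Ccnd2 UMIs. Their Ccnd2 share was 12.0%, 41.3% and 11.5% in mice 1, 2 and 3, against 2.20%, 2.02% and 2.51% in the 2149 other LZ. The share was also higher in the 366 LZ with a Myc UMI (10.1%, 10.3% and 6.49%) than in the 1847 LZ without one (1.05%, 1.89% and 2.15%), by 7.26 ± 2.56 percentage points (two-sided exact permutation of signs, p = 0.25, n = 3). The median depth was 7784.5 UMIs in LZ with a Myc UMI and 6030.0 in those without, and the part of depth in this difference was not tested. Ccnd3 was at 357.6 unscaled CPM in LZ with Myc and at 361 in LZ without.

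The prePC of mouse 2 stood apart in Ccnd3. Of its 76 Ccnd3 UMIs, 54 came from 3 cells outside the authors' cluster 4, at a median of 32537 UMIs per cell. In the 40 prePC of cluster 4 the Ccnd2 share was 44.8% (exact binomial 95% interval 31.7% to 58.5%, counting error only), with 26 Ccnd2 and 32 Ccnd3 UMIs. Of all prePC, 6 cells called G2M held 59 of the 93 Ccnd3 UMIs. Among PC, the 20 cells of the first number had a Ccnd2 share of 72.2% (63.7% to 79.6%) and the 117 of the second number one of 89.8% (87.5% to 91.8%). Ccnd2 was at 272 unscaled CPM in PC of the first number and 243 in those of the second, and Ccnd3 at 105 and 27.7.

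Counted per cell, 108 of 137 PC had a Ccnd2 UMI (78.8%, exact binomial 95% interval 71.0% to 85.3%), against 95 of 2213 LZ (4.29%, 3.49% to 5.22%). In DZ 24 of 3040 cells did (0.789%, 0.506% to 1.17%), against the same LZ value. No state is known to lack either gene, and the DZ share is the largest that free RNA could give in DZ. Depth differs between states, so each cell was thinned to 2000 UMIs, which left out 9 preMem, 14 DZ and 20 LZ. At that depth 33.2% ± 7.98 of PC had a Ccnd2 UMI, 6.81% ± 2.84 of prePC, 9.58% ± 2.97 of preMem, 12.2% ± 2.81 of LZtoDZ, 0.285% ± 0.175 of DZ and 1.79% ± 0.188 of LZ (mean ± SD, n = 3). For Ccnd3 these shares were 5.48% ± 2.13 of PC, 27.9% ± 14.5 of prePC, 27.2% ± 6.29 of preMem, 50.9% ± 0.793 of LZtoDZ, 57.9% ± 2.95 of DZ and 47.8% ± 2.65 of LZ. PC had the most cells with Ccnd2 and the fewest with Ccnd3 at equal depth, and each PC difference from LZ had 1 sign in 3 of 3 mice (two-sided exact permutation of signs, p = 0.25).

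Single PC differed widely in Ccnd2: 29 of 137 had none, the median was 3 UMIs, the quartiles were 1 and 7, and the highest had 49. Without thinning, 57 PC had Ccnd2 alone, 51 had both genes, 7 had Ccnd3 alone and 22 had neither. Among LZtoDZ 6 had Ccnd2 alone, 54 had both, 103 had Ccnd3 alone and 2 had neither. At 2000 UMIs per cell 13 LZtoDZ had Ccnd2 alone and 7 had both.

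**Figure D3:**
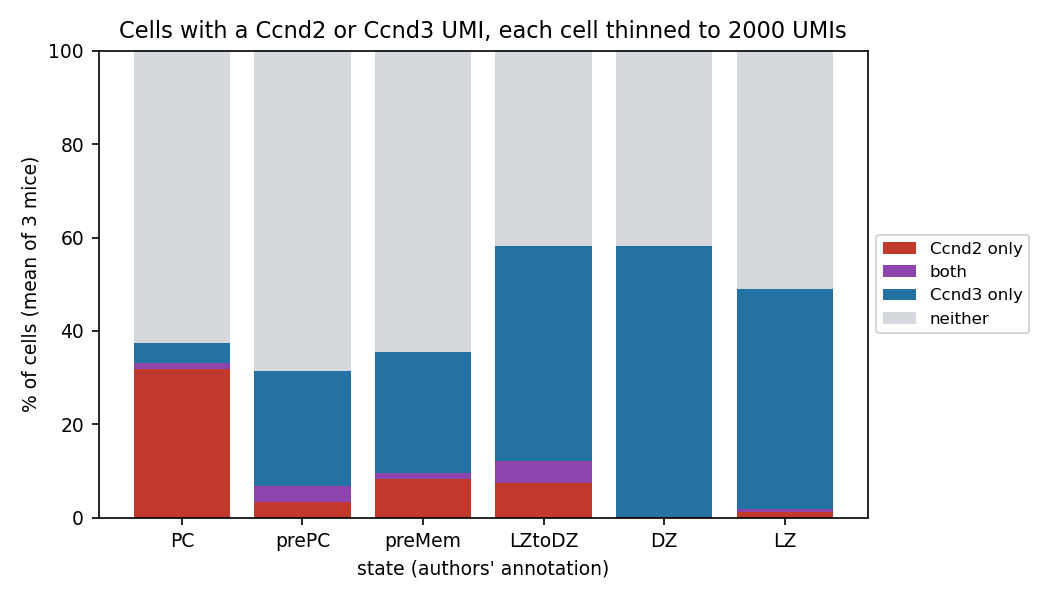
Percentage of cells with a UMI of Ccnd2 only, both genes, Ccnd3 only or neither in each state, with every cell thinned to 2000 UMIs (stacked bars, mean of 3 mice). Ccnd2 alone was found in 31.9% of PC, and Ccnd3 alone in 57.8% of DZ and 47.3% of LZ.

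The kinases that D-type cyclins activate were highest in LZtoDZ. Cdk4 stood at 433, 415 and 431 CPM in the LZtoDZ of mice 1, 2 and 3, against 246, 254 and 240.2 CPM in LZ and 228, 225 and 219 CPM in DZ. It was higher in LZtoDZ than in LZ (log2 fold change 0.79 ± 0.11 (SE), adjusted p = 3.55e-05) and than in DZ (log2 fold change 0.93 ± 0.11 (SE), adjusted p = 7.34e-06), with no overlap. Cdk6 was at 35.9, 30.1 and 29.6 CPM in LZtoDZ (119 UMIs), against 8.74, 10.6 and 9.79 CPM in LZ (175 UMIs). It also rose relative to LZ (log2 fold change 1.68 ± 0.14 (SE), adjusted p = 3.09e-07) and relative to DZ (log2 fold change 1.48 ± 0.13 (SE), adjusted p = 3.65e-07), where it was at 10.6, 11.5 and 11.5 CPM.

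Outside the germinal center states both kinases were at or below the LZ level. Cdk4 was at 189 ± 5.41 CPM in PC and 158 ± 12.99 CPM in prePC, with 132 ± 16.6 CPM in preMem and 247 ± 6.87 CPM in LZ. Its level fell relative to LZ in PC (log2 fold change -0.39, adjusted p = 0.00985), in prePC (-0.63, adjusted p = 0.00283) and in preMem (-0.91, adjusted p = 2.86e-05). The PC call was lost without mouse 1 (-0.37, adjusted p = 0.0803), without mouse 2 (-0.35, adjusted p = 0.0818) and without the second number (-0.71, adjusted p = 0.0857), and the prePC call without mouse 2 (-0.57, adjusted p = 0.0839). Cdk6 fell in PC (-1.29, adjusted p = 0.00974), where it rested on 8 UMIs. That call was lost without mouse 2 (-1.20, adjusted p = 0.0759) and without the second number (-0.80, adjusted p = 0.801).

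Of the E-type cyclins, which activate Cdk2, Ccne1 was highest in LZtoDZ and PC. Its level was 44.6, 41.3 and 38.6 CPM in the PC of mice 1, 2 and 3 (84 UMIs), 52.1, 45.2 and 44.5 CPM in LZtoDZ (177 UMIs) and 21.5, 23.4 and 22.97 CPM in LZ (406 UMIs). PC and LZtoDZ lay above LZ in every mouse, and PC touched the range of LZtoDZ. Ccne1 rose in PC (log2 fold change 0.87 ± 0.14 (SE), adjusted p = 7.49e-05) and in LZtoDZ (log2 fold change 1.03 ± 0.11 (SE), adjusted p = 2.14e-06). The rise in PC depends on the TMM factors. Over all cells Ccne1 made up 84 of 3348303 UMIs in PC and 406 of 15564493 in LZ, an unscaled share no higher in PC. DZ, at 22.2 ± 1.86 CPM, preMem, at 18.9 ± 2.39 CPM, and prePC, at 20.3 ± 4.88 CPM, did not pass against LZ. The PC call was lost without the second number (1.42, adjusted p = 0.0749).

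Ccne2 followed Ccne1 in LZtoDZ but not in PC. It was at 44.0, 32.4 and 30.3 CPM in LZtoDZ (130 UMIs), against 14.5, 17.1 and 19.2 CPM in LZ (311 UMIs), and rose there (log2 fold change 0.99 ± 0.20 (SE), adjusted p = 0.000844). In PC it was at 12.95, 24.5 and 27.5 CPM and did not pass (0.31, adjusted p = 0.387). In preMem its log2 difference from LZ was -1.05 ± 0.39 on 16 UMIs, just outside the threshold (adjusted p = 0.0503), and it passed under 7 of the alternatives, with DESeq2 at an adjusted p of 0.0346. In G1 cells alone, given without a test, Ccne2 was at 6.83, 15.3 and 4.61 CPM in preMem of mice 1, 2 and 3. The G1 cells of LZ had 2.71, 4.52 and 5.49 CPM, so preMem lay above LZ in mice 1 and 2 and below it in mouse 3.

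E2f1 and E2f2, the activating E2F factors among the members, showed few differences between states. E2f1 lay at 9.69 ± 5.43 CPM in PC, 5.90 ± 7.28 CPM in prePC, 5.85 ± 1.55 CPM in preMem, 12.8 ± 5.79 CPM in LZtoDZ, 12.7 ± 1.81 CPM in DZ and 11.8 ± 0.832 CPM in LZ. None of its 6 state comparisons passed, and in PC, prePC and preMem the sums held only 20, 4 and 11 UMIs. In edgeR's test its unadjusted p was under 0.05 in 1 comparison, preMem minus LZ, and DESeq2 called none. E2f2 was at 25.5, 27.8 and 32.1 CPM in the LZtoDZ of mice 1, 2 and 3, against 55.0, 50.3 and 51.6 CPM in DZ and 46.9, 46.3 and 42.9 CPM in LZ. LZtoDZ lay below both zones in every mouse, and E2f2 fell relative to DZ (log2 fold change -0.84 ± 0.15 (SE), adjusted p = 0.000250) and relative to LZ (log2 fold change -0.63 ± 0.16 (SE), adjusted p = 0.00341). Without mouse 2 the difference from LZ did not pass (-0.50, adjusted p = 0.0680). Thinned to 2000 UMIs per cell, the E2f2 calls against DZ (-0.83, adjusted p = 0.187) and against LZ (-0.85, adjusted p = 0.173) were both lost. In PC, preMem and prePC E2f2 averaged 44.0 ± 10.0, 48.9 ± 12.8 and 49.9 ± 20.7 CPM and was not called against LZ.

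The pocket proteins, which restrain E2F factors, differed from each other. Rb1 was low throughout the germinal center and higher in PC: it was at 21.6, 15.5 and 22.0 CPM in the PC of mice 1, 2 and 3 (39 UMIs), against 2.25, 1.71 and 2.13 CPM in LZ (36 UMIs). Its level was 8.55, 12.3 and 4.23 CPM in preMem (16 UMIs) and 14.0, 11 and 0 CPM in prePC (6 UMIs). PC and preMem lay above LZ in every mouse, and prePC did so in mice 1 and 2. Rb1 rose in PC (log2 fold change 3.24 ± 0.38 (SE), adjusted p = 2.84e-06) and in preMem (log2 fold change 2.02 ± 0.50 (SE), adjusted p = 0.00627), while the prePC difference was 2.34 ± 0.79 (adjusted p = 0.0641). The PC call was lost without the second number (2.87, adjusted p = 0.182) and the preMem call without mouse 2 (1.45, adjusted p = 0.176). At 2000 UMIs per cell Rb1 was seen in 0.725% ± 1.26 of PC and 0.490% ± 0.0969 of LZ, too few to compare.

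Rbl1, the pocket protein p107, was lower outside DZ and LZ. It stood at 20.2, 7.74 and 16.5 CPM in PC (29 UMIs), 14.0, 7.33 and 11.4 CPM in prePC (6 UMIs) and 19.2, 16.4 and 16.9 CPM in preMem (33 UMIs). In LZtoDZ it stood at 17.4, 23.3 and 22.2 CPM, in DZ at 32.5, 32.7 and 31.3 CPM and in LZ at 28.7, 33.7 and 29.6 CPM. PC, prePC, preMem and LZtoDZ lay below LZ in every mouse, and DZ overlapped LZ. Rbl1 fell relative to LZ in PC (log2 fold change -1.10, adjusted p = 0.000645), prePC (-1.56, adjusted p = 0.0233), preMem (-0.83, adjusted p = 0.00824) and LZtoDZ (-0.52, adjusted p = 0.0126), and in LZtoDZ also relative to DZ (-0.58, adjusted p = 0.00510). Each of the 4 calls against LZ was lost when at least 1 mouse was left out: PC without mouse 2 (-0.65, adjusted p = 0.0541), preMem without mouse 2 or 3 (-0.71 and -0.84), and prePC (-1.94 to -1.13) and LZtoDZ (-0.58 to -0.43) without any 1 of the 3. The LZtoDZ call against DZ was lost without mouse 3 (-0.62, adjusted p = 0.0740). Without the second number the PC difference from LZ was -2.48 and was not called.

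**Figure D4:**
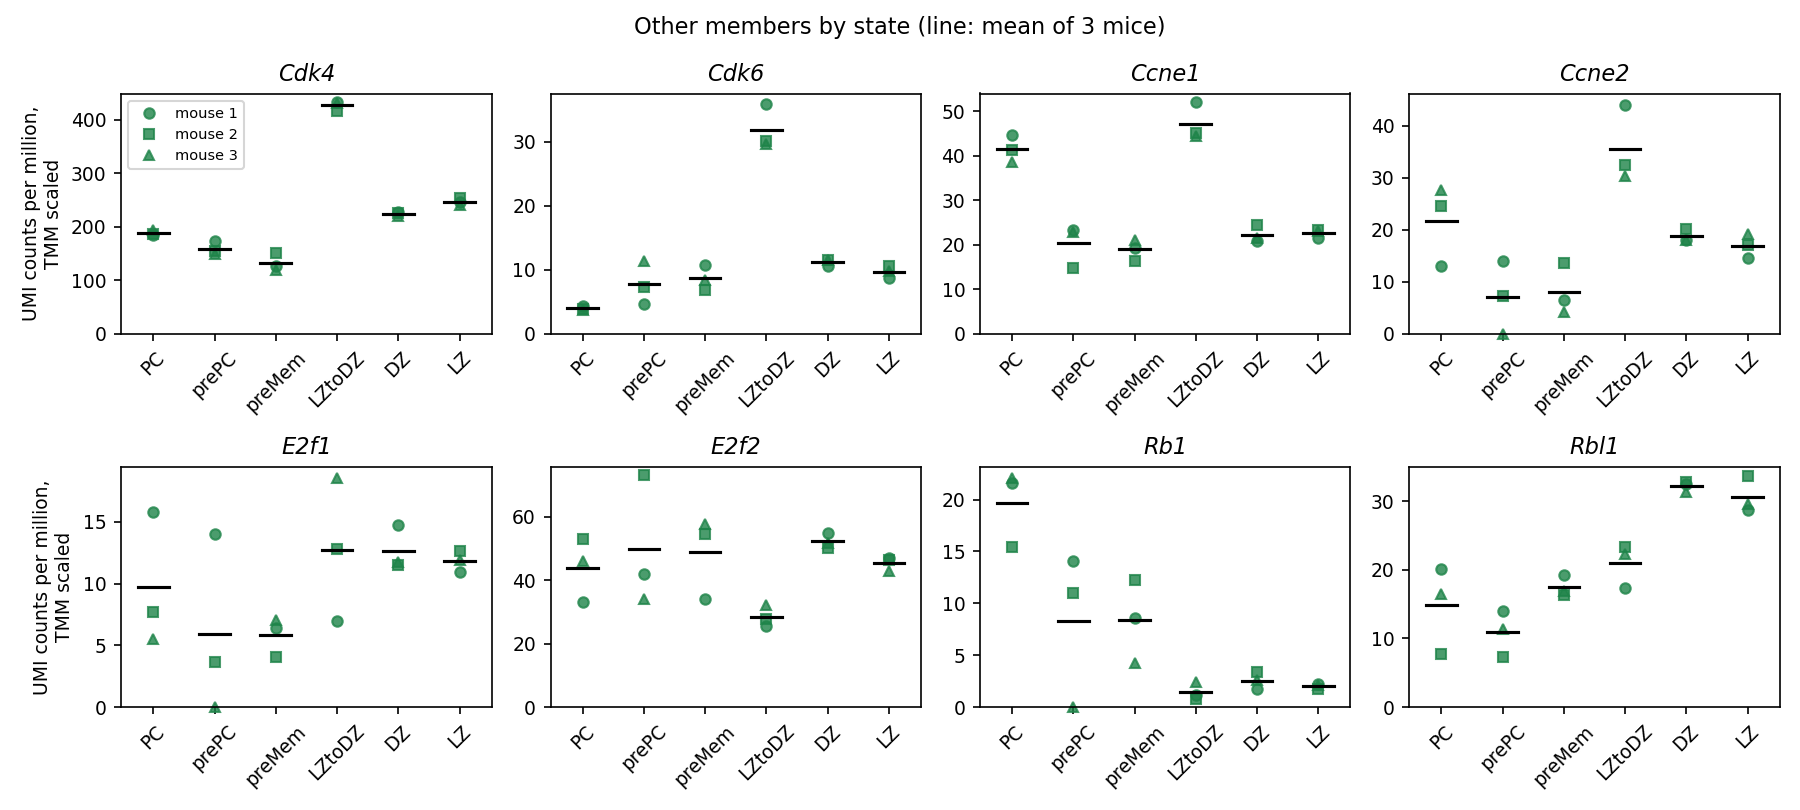
CPM of the 8 members other than Ccnd2 and Ccnd3 in each mouse (symbol) by state, with the mean of 3 mice as a line. Cdk4, Cdk6, Ccne1 and Ccne2 peaked in LZtoDZ, Rb1 in PC, and Rbl1 was highest in DZ (31.3 to 32.7 CPM) and LZ (28.7 to 33.7 CPM).

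The authors' phase calls were the same in 90.0% of cells as calls made anew from the RNA of 42 S and 52 G2M genes, none of them a member, so levels by phase describe cells sorted by related genes. Of PC 65.5% ± 5.05 were in G1, of prePC 86.2% ± 3.83, of preMem 93.5% ± 1.97, of LZtoDZ 10.6% ± 2.63, of DZ 35.5% ± 1.77 and of LZ 55.7% ± 4.11 (mean ± SD, n = 3). Ccne2 belongs to a widely used list of S phase genes and is given by phase without a test. Raw UMIs were summed per mouse, state and phase, and all 9374 genes that passed the filter were tested together. Of the 9 other members, 7 were higher in S than in G1 within DZ, against 29.1% of all genes (16.9% higher, 12.2% lower), and 5 within LZ, against 24.6% of all genes (14.5% higher, 10.1% lower). In G2M against G1, 5 were higher within DZ, against 29.9% of all genes (15.9% higher, 14% lower), and 3 within LZ, against 25.6% of all genes (14% higher, 11.7% lower). No member was called lower in S or in G2M than in G1 by that test.

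Ccne1 differed most by phase among the tested members. Within DZ it was at 8.23, 5.81 and 5.47 CPM in G1 in mice 1, 2 and 3, 42.5, 48.5 and 46.9 CPM in S and 11.3, 17.6 and 13.8 CPM in G2M. It rose in S in DZ (log2 fold change 2.86 ± 0.20 (SE), adjusted p = 3.51e-11) and in LZ (log2 fold change 2.7 ± 0.21 (SE), adjusted p = 2.11e-10), and it was also higher in G2M than in G1 in DZ (1.20, adjusted p = 0.000548) and LZ (1.34, adjusted p = 0.00255). The S values stood above those of G1 and G2M without overlap in both zones. With each cell thinned to 2000 UMIs the Ccne1 call in G2M of LZ was lost (1.31, adjusted p = 0.146). Ccne2 was at 5.67 ± 0.769 CPM in G1, 41.7 ± 2.85 CPM in S and 9.36 ± 0.793 CPM in G2M of DZ.

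Cdk4 was at 151 ± 4.44 CPM in G1, 334 ± 2.67 CPM in S and 208 ± 4.70 CPM in G2M of DZ, and at 167 ± 7.26, 358 ± 8.78 and 246 ± 7.41 CPM in LZ. It rose in S in DZ (log2 fold change 1.15 ± 0.08 (SE), adjusted p = 4.18e-11) and in LZ (log2 fold change 1.10 ± 0.08 (SE), adjusted p = 9.80e-11), and in G2M in both (log2 fold changes 0.46 and 0.56). Cdk6 rose in S within DZ (1.05, adjusted p = 0.000331), and in LZ its S difference was 0.30 (adjusted p = 0.399). The difference between the zones did not pass when tested itself (log2 fold change 0.75 ± 0.31 (SE), adjusted p = 0.815). Thinned to 2000 UMIs per cell, the DZ calls of Cdk6 in S (1.11, adjusted p = 0.121) and of Cdk4 in G2M (0.47, adjusted p = 0.0509) were lost.

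E2f1 peaked in S, at 24.4 ± 4.18 CPM in DZ, against 8.71 ± 1.27 CPM in G1 (log2 fold change 1.48 ± 0.22 (SE), adjusted p = 1.09e-05). The LZ values were 18.7 ± 0.532 CPM in S and 7.06 ± 2.61 CPM in G1 (log2 fold change 1.40 ± 0.25 (SE), adjusted p = 0.000139). In G2M E2f1 stood at 6.41 ± 0.632 CPM in DZ and 11.4 ± 2.06 CPM in LZ, and neither passed against G1. E2f2 was flatter: it rose in S within DZ (0.63, adjusted p = 0.000282), with 64.3 ± 1.97 CPM in S and 41.6 ± 1.97 CPM in G1, and its LZ difference was 0.32 (adjusted p = 0.0838). Thinned to 2000 UMIs per cell, the S calls of E2f1 in LZ (1.05, adjusted p = 0.195) and of E2f2 in DZ (0.57, adjusted p = 0.127) were lost.

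Rbl1 was at 17.5 ± 1.05 CPM in G1, 40.2 ± 0.989 CPM in S and 39.5 ± 2.10 CPM in G2M of DZ, and at 18.8 ± 2.97, 39.5 ± 2.72 and 47.4 ± 5.58 CPM in LZ. It rose in S in DZ (1.21, adjusted p = 1.19e-07) and LZ (1.01, adjusted p = 4.53e-06), and in contrast to E2f1 it was as high in G2M, where it also passed in DZ (1.18, adjusted p = 1.08e-07) and LZ (1.29, adjusted p = 8.99e-07). Thinned to 2000 UMIs per cell, the LZ calls of Rbl1 in S (0.39, adjusted p = 0.471) and in G2M (0.995, adjusted p = 0.0841) were lost. Rb1 rose in S within DZ (1.39, adjusted p = 0.0355), a call that was lost without any 1 of the mice and with phases called anew without the members (1.04, adjusted p = 0.0871).

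The D-type cyclins differed less by phase than Ccne1. Ccnd3 was at 423 ± 9.17 CPM in G1, 507 ± 26.4 CPM in S and 345 ± 2.46 CPM in G2M of DZ, and at 282 ± 4.09, 396 ± 5.16 and 283 ± 55.7 CPM in LZ. Its DZ values did not overlap between phases, but neither S (log2 fold change 0.26, adjusted p = 0.189) nor G2M (-0.30, adjusted p = 0.131) passed against G1 in DZ in edgeR's test, whereas both passed with DESeq2 (adjusted p = 0.00434 and 5.95e-06). It rose in S within LZ (log2 fold change 0.49 ± 0.15 (SE), adjusted p = 0.0133), which did not pass with phases called anew without the members (0.39, adjusted p = 0.0534) or without mouse 3 (0.48, adjusted p = 0.141). Ccnd2 passed in none of the 4 phase comparisons: in LZ it was at 9.77, 13.6 and 14.2 CPM in G1 of mice 1, 2 and 3, 5.49, 12.98 and 9.43 CPM in S and 23.7, 6.37 and 1.75 CPM in G2M. In G2M mouse 1 stood far above the others, and without mouse 1 Ccnd2 was lower in G2M than in G1 (-1.82, adjusted p = 0.00307). The unadjusted p was under 0.05 for none of the 4, and DESeq2 called none.

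**Figure D5:**
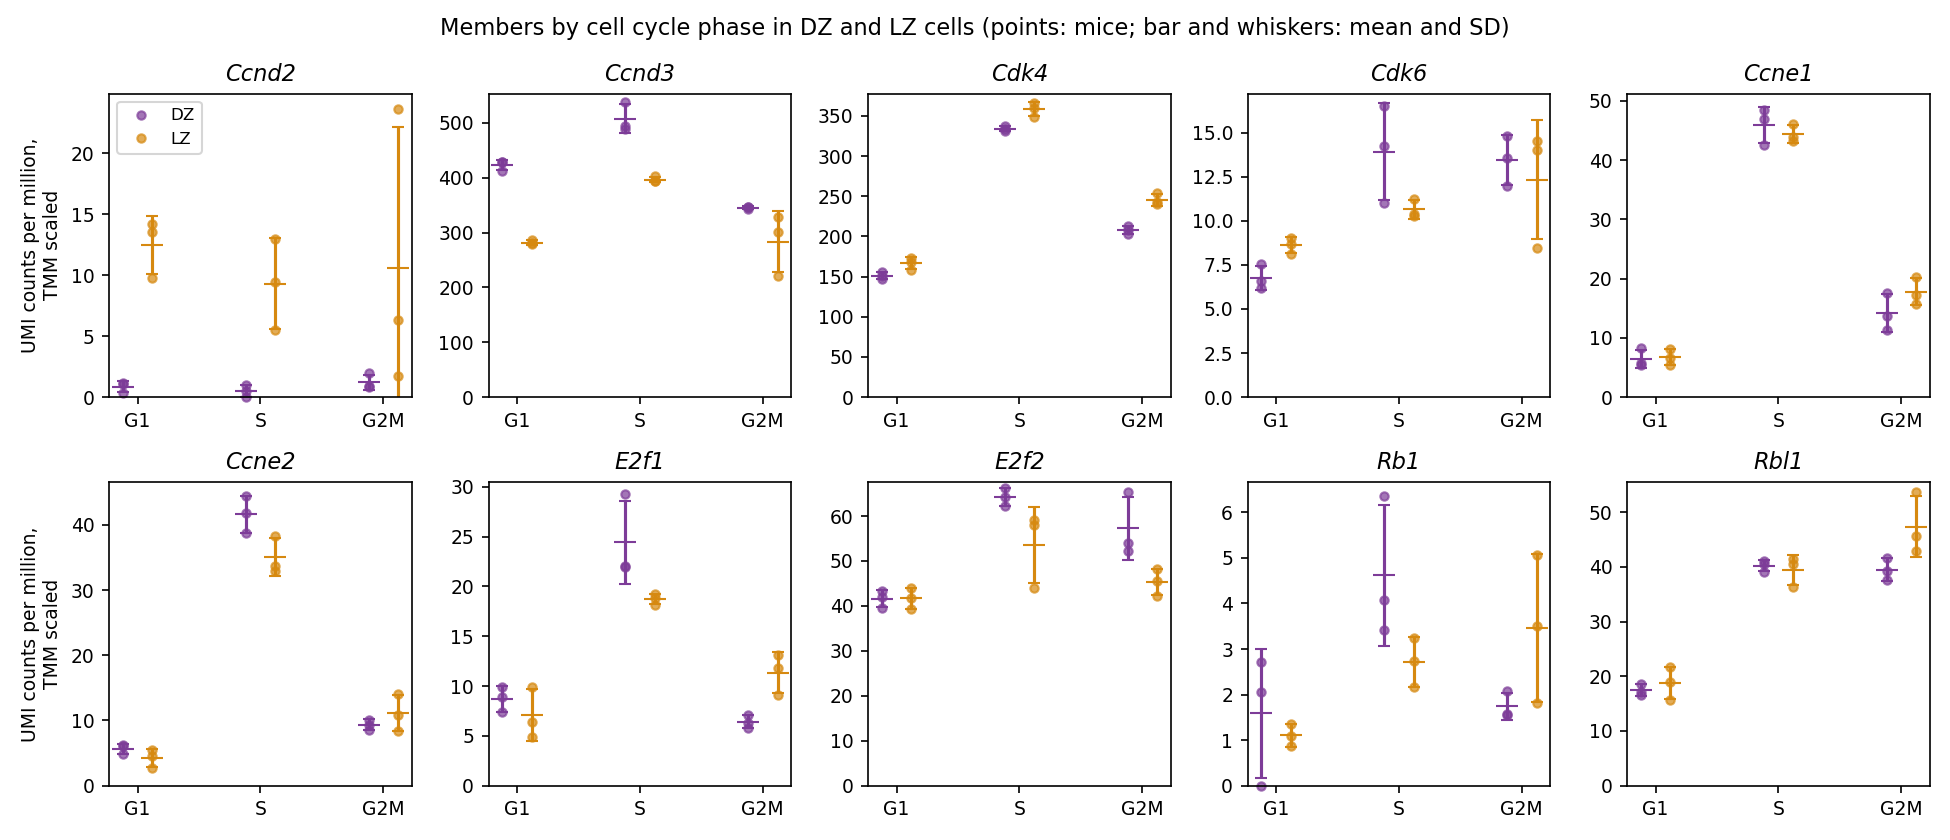
CPM of the 10 members by phase (G1, S, G2M) in DZ (purple) and LZ (orange), with points for the 3 mice and mean and SD as bar and whiskers, cut off at 0 where the SD reaches below it. Ccne1, Ccne2, Cdk4 and E2f1 peaked in S in both zones, Rbl1 was high in S and G2M, and Ccnd2 was higher in LZ than in DZ in each phase.

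The change from G1 to S or G2M was compared between DZ and LZ with an interaction term, and 0 of the 9 members passed for either. Of all genes 0.0107% were called for S and 0.128% for G2M. In edgeR's test 1 member had an unadjusted p under 0.05 for S, Cdk6, and 1 for G2M, E2f1 (log2 fold change -1.08 ± 0.43 (SE), adjusted p = 0.384), and DESeq2 called 0 for each.

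States were also compared within a phase, since they differ in phase make-up. Between DZ and LZ, 2 of 9 members were called in G1, 1 higher and 1 lower in DZ, against 12.4% of all genes (6.39% higher, 5.98% lower). In S 1 was called, lower in DZ, against 8.99% of all genes (4.81% higher, 4.18% lower), and in G2M 1, lower in DZ, against 8.56% of all genes (5.02% higher, 3.53% lower). Ccnd2 was lower in DZ in G1 (-3.87, adjusted p = 0.000336), in S (-3.95, adjusted p = 0.000616) and in G2M (-2.80, adjusted p = 0.0321), the last of which was lost without any 1 of the mice. Thinned to 2000 UMIs per cell, the S call, on 6 UMIs in DZ before thinning, was lost (-2.58, adjusted p = 0.0917). The G2M call was lost there too (-2.48, adjusted p = 0.327). Ccnd3 rose in DZ in G1, with 413, 429 and 428 CPM in DZ and 286, 280.1 and 279 CPM in LZ of mice 1, 2 and 3 (log2 fold change 0.59 ± 0.15 (SE), adjusted p = 0.00733). That call was lost without mouse 3 (0.57, adjusted p = 0.136). In S and G2M its differences were 0.35 and 0.29 and did not pass.

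In S phase 7 of 9 members were called between LZtoDZ and LZ, 5 higher and 2 lower, against 32.7% of all genes (17.1% higher, 15.6% lower). Cdk6 rose (1.66, adjusted p = 1.21e-06), as did Ccnd2 (1.77, adjusted p = 0.00207), Ccne1 (0.62, adjusted p = 0.00674), Ccnd3 (0.54, adjusted p = 0.00521) and Cdk4 (0.40, adjusted p = 0.000408). E2f2 fell (-0.84, adjusted p = 0.00143), and so did Rbl1, to 13.6, 26.0 and 21.1 CPM in LZtoDZ, against 40.5, 41.5 and 36.4 CPM in LZ (-0.93, adjusted p = 0.000470). With each cell thinned to 2000 UMIs, which gives shallow and deep cells equal weight, Ccnd3 turned to -0.09, adjusted p = 0.810, and Ccnd2 alone of the 9 passed (2.49, adjusted p = 0.00578). The median of all genes moved there too, to -0.33, against -0.05 without thinning, so Ccnd3 lay above it. The Ccnd3 call was also lost without mouse 3 (0.56, adjusted p = 0.0610), and that of E2f2 without mouse 2 (-0.65, adjusted p = 0.0892).

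In G1 5 of 9 members were called between preMem and LZ, 3 higher and 2 lower, against 19.5% of all genes (10.2% higher, 9.33% lower). Ccnd2 (2.21, adjusted p = 8.92e-05), Rb1 (2.71, adjusted p = 0.00708) and Ccne1 (1.42, adjusted p = 0.00661) rose, and Ccnd3 (-0.77, adjusted p = 0.000567) and Cdk4 (-0.35, adjusted p = 0.00838) fell. Ccne1 was at 20.5, 15.3 and 20.0 CPM in G1 preMem and 5.43, 8.14 and 6.65 CPM in G1 LZ of mice 1, 2 and 3, without overlap, while over all phases it was not called. Rbl1, lower in preMem over all phases, was at 18.1 ± 2.09 CPM in G1 preMem and 18.8 ± 2.97 CPM in G1 LZ (-0.12, adjusted p = 0.809). The Ccne1 and Cdk4 calls were lost without mouse 1 (adjusted p = 0.0534 and 0.0847) and without mouse 3 (0.125 and 0.0826), and the Rb1 call without mouse 2 (0.168).

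The same comparison for PC and prePC was chosen after the data were seen. In G1 PC 6 of 9 members were called, 2 higher and 4 lower, against 46% of all genes (22% higher, 24% lower), and the median log2 fold change of all genes was -0.18. Ccnd2 was at 639, 342 and 263 CPM in G1 PC and 9.77, 13.6 and 14.2 CPM in G1 LZ of mice 1, 2 and 3 (4.93, adjusted p = 5.98e-14), and Rb1 also rose (3.84, adjusted p = 6.15e-05). Ccnd3 fell, with 59.0, 31.6 and 30.7 CPM in G1 PC (-2.80, adjusted p = 4.44e-12), as did Cdk6, Rbl1 and Cdk4 (log2 fold changes -1.94, -1.33 and -0.31), and those last 3 were called neither by DESeq2 nor when mouse 2 was left out. Thinning turned Rb1, with 15 UMIs in G1 PC before it, to -2.59, adjusted p = 0.673, and the median of all genes to -0.85. Ccne1, higher in PC over all phases, was at 16.4, 0 and 8.78 CPM in G1 PC, overlapping G1 LZ (0.17, adjusted p = 0.846), but with phases called anew without the members it passed (1.61, adjusted p = 0.000100). In G1 prePC, where mice 1 and 2 gave sums, 3 of 9 members were called, against 10.5% of all genes (6.45% higher, 4.05% lower): Ccnd2 (2.13) and Rb1 (3.66) rose and Ccnd3 (-1.81) fell. The median of all genes was -0.16 there, and the Rb1 call, on 5 UMIs, was lost without mouse 1, 2 or 3 (adjusted p = 0.105, 0.340 and 0.0649). The Ccnd2 call was lost without mouse 2 (0.81, adjusted p = 0.855) and without mouse 3 (2.45, adjusted p = 0.0626).

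Other genes of the pathway were taken from lists chosen with earlier results of these data known. Of 18 E2F target genes of DNA replication and division, 14 rose and none fell in LZtoDZ relative to LZ, against 46.8% of all genes (22.5% higher, 24.3% lower), and their median log2 fold change was 0.52, where that of all genes was -0.08. Ccna2, the cyclin of S and G2 phase, was at 232 ± 0.882 CPM in LZtoDZ and 115 ± 7.38 CPM in LZ (log2 fold change 1.0 ± 0.20, adjusted p = 0.000839). In preMem none rose and 17 fell, against 31.3% of all genes (16.7% higher, 14.7% lower) (list median -1.58, against 0.03 for all genes), among them Cdc6, which loads the replicative helicase, at 8.87 ± 0.882 CPM in preMem and 37.7 ± 1.59 CPM in LZ. In prePC none rose and 12 fell, against 13.4% of all genes (8.08% higher, 5.3% lower) (list median -1.07, against -0.08). In PC 2 rose and 10 fell, against 53.3% of all genes (26.4% higher, 26.9% lower) (list median -0.54, against -0.09): Rrm2, a subunit of ribonucleotide reductase, was at 423 ± 79.5 CPM in PC and 221 ± 9.39 CPM in LZ (log2 fold change 0.93 ± 0.25, adjusted p = 0.00505), while the helicase subunit Mcm3 fell (log2 fold change -1.06 ± 0.21, adjusted p = 0.000510). Within DZ and within LZ all 18 were higher in S than in G1, against 16.9% and 14.5% of all genes, and several of them are commonly used to call S phase. The states differ in phase make-up. Relative to LZ within S, 5 rose and 1 fell in LZtoDZ, against 32.7% of all genes (list median 0.02, against -0.05). Within G1, 1 rose and 4 fell in preMem, against 19.5% of all genes (list median -0.11, against 0.01). In G1 prePC none rose and 2 fell, against 10.5% of all genes (list median -0.60, against -0.16). In G1 PC 1 rose and 12 fell, against 46% of all genes (list median -1.55, against -0.18).

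Of 7 CDK inhibitors 4 were tested by state. Cdkn1b, which encodes p27 and inhibits cyclin-Cdk2 complexes, was at 47.0 ± 13.7 CPM in PC, 41.3 ± 6.74 CPM in prePC and 71.7 ± 7.44 CPM in preMem, against 5.86 ± 0.116 CPM in LZ, and it rose in each (log2 fold changes 3.0, 2.87 and 3.59). Cdkn2d and Cdkn2c, inhibitors of Cdk4 and Cdk6, fell in LZtoDZ, Cdkn2d to 28.2 ± 9.55 CPM, against 77.5 ± 5.98 CPM in LZ (log2 fold change -1.41 ± 0.16, adjusted p = 4.02e-06). In PC 2 inhibitors rose, Cdkn1b and Cdkn2a, and 1 fell, Cdkn2d, against the same 53.3% of all genes. Of 23 other genes of the G1/S machinery 21 were tested, and in PC 6 rose and 4 fell, a share no higher than the 53.3% of all genes. The E2F family member E2f5 was at 2.08 ± 1.89 CPM in PC and 21.5 ± 1.68 CPM in LZ (log2 fold change -3.40 ± 0.50, adjusted p = 3.00e-05), and Cdk2, the partner of the E-type cyclins, fell as well (log2 fold change -1.48 ± 0.21, adjusted p = 1.70e-05). In LZtoDZ 8 of the 21 rose and 3 fell, near the 46.8% of all genes (22.5% higher, 24.3% lower), led by Cks1b, a cofactor of cyclin-dependent kinases (log2 fold change 0.99 ± 0.22, adjusted p = 0.00191), and by the decrease of the pocket protein gene Rbl2 (log2 fold change -0.98 ± 0.32, adjusted p = 0.0199).

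Among 7 regulators upstream of D-type cyclins, Bcl6 and Foxo1, known to restrain Ccnd2, fell in PC and in LZtoDZ. Bcl6 was at 0.430 ± 0.745 CPM in PC and 23.3 ± 2.64 CPM in LZtoDZ, against 55.1 ± 2.696 CPM in LZ, and Foxo1 at 45.8 ± 1.83 CPM in PC and 29.2 ± 6.84 CPM in LZtoDZ, against 71.1 ± 3.85 CPM in LZ. Myc rose in LZtoDZ (log2 fold change 1.31 ± 0.22, adjusted p = 0.000183) and was lower in DZ than in LZ (log2 fold change -1.54 ± 0.21, adjusted p = 7.54e-05). In PC, prePC and preMem, all above LZ in Ccnd2, Myc averaged 35.7 ± 10.1, 39.2 ± 36.2 and 21.7 ± 2.37 CPM. In LZ Myc averaged 47.7 ± 9.31 CPM. Whether Myc, Bcl6 or Foxo1 sets the level of Ccnd2 in any state was not tested. In PC 2 regulators rose, Irf4 and Pim1, and 4 fell, where 53.3% of all genes were called. In LZtoDZ 1 of the 7 rose and 3 fell relative to LZ, where 46.8% of all genes were called. In prePC none rose and 2 fell, where 13.4% of all genes were called. In preMem none rose and 1 fell, where 31.3% were called, so Bcl6 and Foxo1 were not both called lower there.

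Over the 18 sums of mouse and state and the 8005 genes compared, the genes whose log2 CPM ran most like Ccnd2 were Slc17a9, a vesicular nucleotide transporter gene (Pearson r 0.96), the ribosomal protein gene Rpl38 (0.94), Rps28 (0.91), Fam212a (0.91) and Rpl27 (0.90). Slc17a9 averaged 71.8 CPM in PC, 10.6 CPM in LZtoDZ, 0.741 CPM in DZ and 3.35 CPM in LZ. Most like Ccnd3 were Gcsam, a germinal center signalling gene (0.96), Grhpr (0.96), Parp1 (0.95), Cobl (0.95) and Bzw2 (0.94). Gcsam averaged 10.1 CPM in PC, 322 CPM in DZ and 137 CPM in LZ. The sums share mice, libraries and depth by state, and these values describe likeness only.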

How the data were processed

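The authors deposited 1 matrix of UMI counts, not normalised, pooled over the mRNA libraries of 3 mice, with a table of the authors' cell states, cell cycle phases, clusters and mouse numbers. The submitters' processing notes name Seurat and Cell Ranger, with no version, and the GRCm38 (mm10) build. The sources used here do not give the filters on cells and genes, the treatment of doublets or the way phases and states were called. A signature score deposited by the authors for each cell, whose genes are not named, was not used. Of the 12 libraries, in 6 groups, those for hashing antibodies and B cell receptors were not analysed here.

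Counts were summed per mouse and state, and per mouse, state and phase, for sums of at least 10 cells, and no cell was removed. Sums were tested with edgeR 4.0.16 (quasi-likelihood, TMM factors, filter on low counts, mouse as a block, Benjamini-Hochberg adjustment over all genes) in R 4.3.3, after the test had been run on simulated data. A standard error is the size of the log2 fold change divided by the square root of F. Changes are relative to TMM scaling, and the median of all genes was within 0.1 of 0 except for PC and prePC against LZ in G1. P-values of edgeR rest on a spread between mice fitted per gene over all groups of a fit together. They do not measure the spread within the compared states alone. For Ccnd3 the SD was 126 CPM in prePC, against 11.1 in DZ and 8.61 in LZ. Exact sign-flip permutation tests cannot go below 0.25 with 3 mice. The mouse is a block because sums with 1 number are from 1 animal. Their deviations from the state means had a median correlation of 0.0376 over 45 pairs, against -0.0215 over 90 pairs of different mice. Single-cell shares carry exact binomial 95% intervals, which cover counting error only. DESeq2 1.42.0 and the other alternatives are in the closing section.

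The members and gene lists were chosen with earlier results of these data known. All members are named in the text, and from each pathway list genes were drawn from the 3 with the largest change past the threshold in each direction and at least 10 CPM in the higher group. Likeness used Pearson r of log2 CPM (prior count 2) over sums of mouse and state, leaving out immunoglobulin and predicted genes.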

Additional observations from a re-analysis of the deposited data

How the results depend on the processing

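Over 13 alternatives, 2 of the member results that had passed the test turned sign, both with each cell thinned to 2000 UMIs before summing: Ccnd3 for LZtoDZ minus LZ in S (-0.092, adjusted p = 0.810) and Rb1 for PC minus LZ in G1 (-2.59, adjusted p = 0.673). The medians of all genes were -0.33 and -0.85 in those comparisons. Differences that had not passed crossed 0 as well, such as Ccnd3 for LZtoDZ minus DZ (-0.09 with thinning). Thinning leaves fewer UMIs, and by state 4 of the 10 members could then be tested (Ccnd2, Ccnd3, Cdk4 and E2f2). The members past the threshold were 2 for PC minus LZ, 0 for prePC minus LZ, 3 for preMem minus LZ (none of the 4 lost its call there), 2 for LZtoDZ minus LZ, 2 for LZtoDZ minus DZ, 4 for S and 3 for G2M against G1 in DZ, 2 for S and 1 for G2M against G1 in LZ, 0 for DZ minus LZ in S and 0 in G2M, 1 for LZtoDZ minus LZ in S, 2 for PC minus LZ in G1, 3 for preMem minus LZ in G1 and 1 for prePC minus LZ in G1. For DZ minus LZ, DESeq2 called 2 members, a minimum of 20 cells 2, and leaving out immunoglobulin genes 3. In S, DESeq2 called 3, and 2 were called without the cells of the second number. In G2M, DESeq2 called 3, RLE factors 2, phases called anew without the members 0, and 3 were called without the cells of the second number. DESeq2 called 3 members for PC minus LZ in G1, a minimum of 20 cells left 2 for prePC minus LZ, and 1 remained for PC minus LZ without the second number. The cause of these changes was not tested. Leaving out each mouse in turn gave 4 to 7 members for PC minus LZ, 3 to 4 for PC minus LZ in G1, 2 to 2 for prePC minus LZ, 1 to 2 for prePC minus LZ in G1, 3 to 4 for preMem minus LZ, 3 to 4 for preMem minus LZ in G1, 1 to 2 for DZ minus LZ in G1 and 0 to 0 in G2M. Without the replicate block for the mouse, no member call was lost and 2 were gained, Ccne2 in preMem (-1.04, adjusted p = 0.0386) and Rb1 in prePC (2.34, adjusted p = 0.0389).

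With thinning to 2000 UMIs the Ccnd2 share of the D-type cyclin UMIs differed by 14.8 percentage points for LZtoDZ minus LZ, by 17.2 for LZtoDZ minus DZ and by 15.3 for prePC minus LZ, against 5.71, 8.73 and 36.1 without it. Of shares of cells with a UMI, the Ccnd3 share for LZtoDZ minus DZ turned to 2.85 percentage points without thinning, and that for LZtoDZ minus LZ to -1.64 with cells thinned to 1000 UMIs. The share of cells with both cyclins turned to -0.149 for PC, for preMem and for prePC minus LZ at 1000 UMIs, and to between -0.573 and 4.51 for prePC minus LZ with each mouse left out. Of 214 alternative counts over all genes, 57 moved by more than 1.5 times. The 4518 genes called for PC minus LZ fell to 663 without the second number and to 1213 with thinning, the 3969 for LZtoDZ minus LZ to 1203 and the 3822 for LZtoDZ minus DZ to 1096. The 2653 for preMem minus LZ moved to between 1009 and 1747, the 1134 for prePC minus LZ to between 317 and 699 and the 1646 for DZ minus LZ to between 581 and 2549. In prePC 5 members rested on few UMIs: 4 of E2f1, 4 of Cdk6, 5 of Ccne2, 6 of Rb1 and 6 of Rbl1.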
